A study of Mus musculus with 6 samples.

Results

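Inflammasomes are protein complexes that assemble in the cytosol when a sensor meets a microbial product or another sign of damage. The sensor recruits an adaptor and an inflammatory caspase, which cuts the cytokine precursors of IL-1β and IL-18 and frees the pore-forming end of gasdermin D, so that cytokine leaves the cell and the cell may lyse. In the intestinal epithelium such complexes are known for the expulsion of infected cells and for the release of IL-18. Tuft cells are rare chemosensory cells of this epithelium, best known as its source of IL-25. The inflammasome and gasdermin genes described here were named by symbol, with no threshold on their levels, when earlier results of these data were known. They are 10 genes of the 23420 in the expression table: the sensors Nlrp6, Nlrp3, Nlrc4 and Naip6, the adaptor Pycard, the caspases Casp1 and Casp4, the gasdermin Gsdmd, and the cytokines Il18 and Il1b.

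RNA was sequenced from tuft cells of the distal small intestine in 6 libraries that form 1 group, each labelled as a separate mouse replicate, with no treatment named. The mice were Gfi1b-eGFP/+ on the C57BL/6J background, and the study's methods give an age of 6 to 12 wk for its mice. Green fluorescent protein is expressed from 1 copy of Gfi1b, a transcription factor gene active in tuft cells, and live cells carrying GFP and EpCam but not CD45 were sorted, so the group holds whatever cells that gate admits. With no other cell type sequenced in the table, a level says nothing of whether a gene is higher in tuft cells than elsewhere, and the only comparisons are between genes within a library.

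Values are TPM (transcripts per 1000000), which are corrected for transcript length and sum to 1000000 in each library. The number of reads behind a value cannot be recovered from TPM. Depth is thus unknown, and a gene listed at 0 has no detection limit. Between 13044 and 13308 genes per library had a value above 0. The precursor of ribosomal RNA, Rn45s, took 25.1%, 24.8%, 23.1%, 26.7%, 32.6% and 32.2% of TPM in replicates 1 to 6, which lowers all other values by a share that varies between libraries. Gm20594, a predicted gene, took 2.13%, 2.09%, 1.56%, 5.36%, 5.18% and 5.64%. By this transcript replicates 1 to 3 stood apart from replicates 4 to 6, so comparisons between genes are also given within each of these sets.

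The tuft cell label was checked against 13 marker genes, and all 13 were above 0 in all 6 libraries. Their summed level was 7001, 6449, 4320.2, 4902, 4120.0 and 4218 TPM in replicates 1 to 6. Trpm5, the cation channel of taste signalling, had the highest mean of them at 1141 ± 211 TPM (SD, n = 6), although Alox5ap, a gene of leukotriene synthesis, was higher in replicates 1 and 3. Dclk1, a kinase that marks tuft cells, was at 628 ± 130 TPM (SD, n = 6), and Pou2f3, the transcription factor that tuft cells require, was at 182 ± 48.7 TPM (SD, n = 6). The defining genes of tuft cells were thus present, among them Gfi1b, on which the cells were sorted. Presence does not set tuft cells apart here, because all 8 enterocyte, 7 goblet cell and 7 Paneth cell genes listed were also above 0 in every library, as were 47.2% of all genes in the table. Summed over 7 genes, Paneth cell transcripts were at 7529, 4089, 4455, 26976, 16356 and 8724 TPM, led by the α-defensin gene Defa24. Summed over 8 genes, enterocyte transcripts were at 3505, 2604, 2717, 5739.6, 4131 and 3644 TPM, led by the bile acid binding protein gene Fabp6. Summed over 7 genes, goblet cell transcripts were at 1209.9, 1080.4, 2648, 2436, 3059.95 and 5319.9 TPM, led by Zg16, which encodes a mucus protein. Paneth and enterocyte sums were highest in replicate 4 and the goblet sum in replicate 6, whereas the tuft cell sum was highest in replicates 1 and 2. Enteroendocrine transcripts summed over 9 genes lay between 379 and 536.5 TPM, mostly from the secretin gene Sct at 384 ± 50.5 TPM (SD, n = 6). In a bulk sample, fewer cells of a type and less RNA per cell cannot be told apart.

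Immune cells are the best known site of several inflammasome genes. Each of their marker lists summed to less than any epithelial list above, but for the enteroendocrine list this rested on Sct. The next gene of that list by mean level, Gcg, was at 18.2 TPM. Sums over lists of unlike genes and sizes do not rank the amounts of these cells. Single immune markers were not all lower than epithelial ones, since Ptprc averaged 112 TPM and the tuft cell gene Gfi1b 109 TPM. Of 9 genes for T cells and intraepithelial lymphocytes the table held 7, with sums of 194, 222, 124, 183, 284 and 299.9 TPM, led by Ptprc, the gene of CD45, at 171, 156, 84.5, 110.5, 77.4 and 74.2 TPM. Cd3e, a chain of the T cell receptor complex, was at 3.70, 3.43, 1.5, 4.5, 1.52 and 11.6 TPM. Gzma, a granzyme gene of cytotoxic lymphocytes, was at 10.4, 35.7, 29.1, 36.0, 141 and 158 TPM, so the lymphocyte list did not vary between libraries as Ptprc did. Macrophage and monocyte transcripts, with 5 of 9 genes above 0 in every library, summed to 36.8, 39.9, 58.1, 33.0, 23.4 and 44.2 TPM, led by the integrin gene Itgam at 14.3 ± 3.37 TPM (SD, n = 6). Of their defining genes, Adgre1 (listed as Emr1) was listed at 0 except for 1.13 TPM in replicate 2, and Csf1r was at 0, 0.06, 4.36, 0, 0 and 3.10 TPM. Cd14 was at 1.54 to 13.8 TPM, Tyrobp at 2.98 to 10.4 TPM, Lyz2 at 0.91 to 9.06 TPM and Cd68 at 0.94 to 4.78 TPM, so other genes of this list were low but present in all 6 libraries. Of 5 neutrophil genes the table held 4, with sums of 8.42 to 25.7 TPM that came almost wholly from the chemokine receptor gene Cxcr2 at 16.4 ± 5.98 TPM (SD, n = 6). S100a8 and S100a9, which neutrophils express abundantly, were listed at 0 in all 6 libraries. The 5 dendritic cell genes summed to between 0.86 and 7.53 TPM. Zbtb46 led them by mean level through 7.21 TPM in replicate 1, and was at 0 in replicates 2, 5 and 6. Xcr1 was at 0.25 to 1.04 TPM, and Itgax was at 0, 1.82, 0.04, 0, 0 and 0 TPM. The 5 B cell and plasma cell genes were led by the joining chain gene Igj, with sums of 0, 0.34, 2.42, 4.53, 38.2 and 16.8 TPM, and Cd79a was above 0 in replicates 2 and 4 alone, at 0.34 and 1.99 TPM. By mean level Ptprc was the most abundant transcript of these immune lists. It was highest in replicates 1 and 2, as the tuft cell sum was, whereas Gzma was the highest gene of these lists in replicates 5 and 6. Which cells the Ptprc transcripts came from was not tested.

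Of the 10 inflammasome and gasdermin genes, 8 were above 0 in every library, beside 47.2% of all 23420 genes. The same 8 had a mean of at least 10 TPM, beside 29.8% of all genes. Il1b was above 0 in 3 libraries and Nlrp3 in none. The median of the 10 mean levels was 37.1 TPM, and over all genes it was 1.24 TPM. The SD of these 8 genes between libraries had a median of 0.34 on the log2(TPM + 1) scale, and that of the 11047 genes above 0 in every library had a median of 0.50. The median coefficients of variation were 24.7% and 37.6%. The 11047 genes were not matched to the 8 for level, so these spreads cannot be compared apart from level. These counts and medians describe a list of well-studied genes and were not tested.

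**Figure D1:**
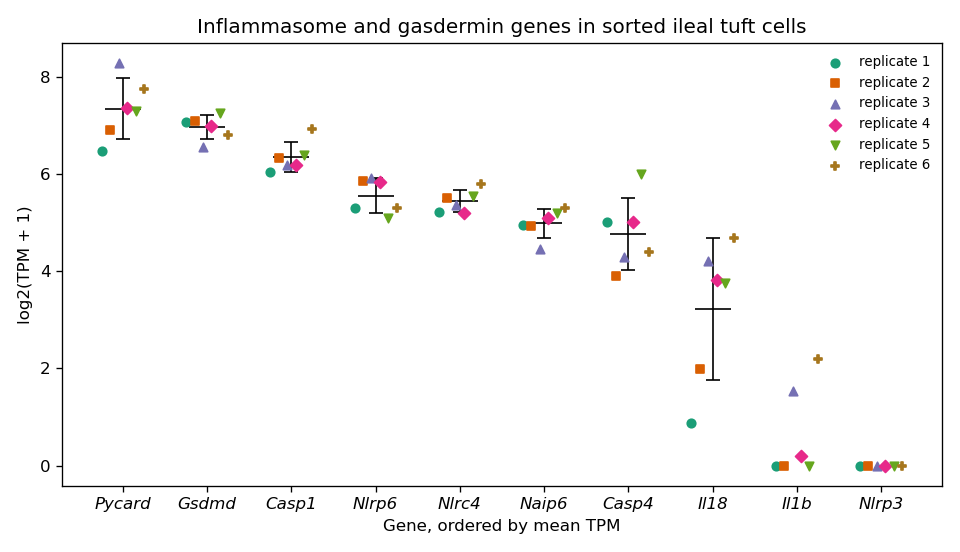
Level of each inflammasome and gasdermin gene in each of the 6 libraries, as log2(TPM + 1), with genes ordered by mean TPM. Symbols are libraries, and the horizontal bars with whiskers are the mean ± SD over 6 libraries, drawn for the 8 genes above 0 in every library. Pycard, Gsdmd and Casp1 lie at the top, Il18 spreads most among these 8 genes, Il1b is above 0 in 3 libraries and Nlrp3 is listed at 0 in all 6.

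Of the genes for sensors and their partners, Nlrp6, Nlrc4 and Naip6 had mean levels of 47.0, 42.8 and 31.3 TPM, and Nlrp3 was listed at 0. Nlrp6 is a NOD-like receptor known in the intestinal epithelium for a part in mucus secretion and antimicrobial defence. In replicates 1 to 6 it was at 38.3, 56.9, 59.5, 56.2, 33.2 and 38.2 TPM, averaging 47.0 ± 11.7 TPM (SD, n = 6). Replicates 2, 3 and 4 lay close together above the other 3 libraries. Its rank within a library, among genes listed above 0 there, had a median at the 83.0 percentile.

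Nlrp3, the sensor best known from macrophages, was listed at 0 in all 6 libraries. The difference of Nlrp6 over Nlrp3 within a library was 5.55 ± 0.36 on the log2(TPM + 1) scale (SD, n = 6) and went the same way in 6 of 6 libraries. Within replicates 1 to 3 it was 5.69 and within replicates 4 to 6 it was 5.41. Because Nlrp3 is at 0 throughout, this difference is the level of Nlrp6 itself and depends on the pseudocount, at 8.84 with 0.1 and 12.16 with 0.01 in place of 1. Its direction could not have been otherwise, so the test planned for it says nothing and nothing is read from it. That test, an exact permutation test that flips the signs of the 6 differences (the sign-flip test, two-sided), was applied to 5 planned pairs of genes with Benjamini-Hochberg adjustment, and 0.03125 is the smallest p it can give over 6 libraries.

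Nlrc4, grouped here with the sensors, is known to be recruited by NAIP proteins that have bound a bacterial ligand. Its levels were 36.5, 44.4, 40.2, 35.6, 45.7 and 54.4 TPM, averaging 42.8 ± 6.97 TPM (SD, n = 6). All 6 libraries lay close together and replicate 6 was the highest. Set against Nlrp6 in the same library, Nlrp6 was higher in 4 of 6 libraries, by 0.11 ± 0.49 on the log2(TPM + 1) scale (SD, n = 6). The exact sign-flip test gave p = 0.5625, also after adjustment. The mean difference was 0.32 within replicates 1 to 3 and -0.10 within replicates 4 to 6, so its direction was not the same in both sets, and no order of these genes can be stated.

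Naip6 is a member of the NAIP family and, with Naip5, binds flagellin, the protein of bacterial flagella. It was at 30.1, 29.6, 20.9, 33.1, 35.8 and 38.5 TPM, a mean of 31.3 ± 6.14 TPM (SD, n = 6). Replicate 3 was the lowest and replicate 6 the highest. The other NAIP genes were also present: Naip5 was at 71.6 ± 17.4 TPM, with replicate values of 81.4, 73.4, 41.7, 76.1, 64.4 and 92.9 TPM. Naip2, which is known to bind the inner rod protein of bacterial type III secretion systems, was at 37.3 ± 5.48 TPM (SD, n = 6). Naip1, which binds the needle protein of these systems, was at 15.2 ± 5.83 TPM (SD, n = 6). Naip5 was the highest NAIP gene in all 6 libraries.

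The division of reads among these NAIP genes is uncertain because their transcripts share long stretches. Of the 25-base words in the annotated transcript of Naip6, 40.5% also occur in transcripts of other genes, 32.6% in those of Naip5. For Naip5 the share was 59.5%, for Naip1 50.4% and for Naip2 39.8%. All lie side by side on the minus strand of chromosome 13 (GRCm38): Naip2 from 100144063 to 100202092, Naip5 from 100211739 to 100246323, Naip6 from 100281121 to 100317674 and Naip1 from 100407764 to 100452869. The coding sequences of Naip6 and Naip5 are each 4209 bases long in the annotation and share an identical run of 229 bases, at coding positions 2338 to 2566 of both. A read that falls wholly within this run carries nothing that tells the genes apart. Reads were paired, so its mate may do so where it lies outside the run. The shares of 25-base words do not take pairs into account. The end of that run and the bases after it, coding positions 2537 to 2596 in each transcript, are shown to let the likeness be seen, 5′ to 3′ on the coding strand, with the base that differs in capitals.
Naip6: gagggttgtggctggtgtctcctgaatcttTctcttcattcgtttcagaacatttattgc
Naip5: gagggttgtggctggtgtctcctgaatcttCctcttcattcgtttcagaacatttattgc
A sum over the family depends less on that division but is not free of it, since the transcripts differ in length and Naip3, which shares 38.0% of the words of Naip1, is not listed in the table. Naip1, Naip2, Naip5 and Naip6 together were at 151, 157, 114, 173, 151.6 and 186 TPM, a mean of 155 ± 24.7 TPM (SD, n = 6) with a coefficient of variation of 15.9%. Of this sum, between 18.3% and 23.6% was credited to Naip6. Replicate 3 held the lowest family sum, as it did for Naip6 and Naip5 alone.

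Of the 12 other sensor genes listed, 6 were above 0 in every library and 3, the NAIP genes just named, had a mean of at least 10 TPM. These shares of 50% and 25% lie near or below the 47.2% and 29.8% of all genes. Aim2, a sensor of cytosolic DNA, was at 11.6, 2.42, 7.44, 7.31, 5.31 and 9.71 TPM. Nlrp9b, a receptor described in intestinal epithelium, was at 5.79, 2.59, 2.43, 9.37, 7.17 and 8.85 TPM. Both were thus low but listed above 0 in all 6 libraries. Nlrp9b shares 12.3% of its 25-base words with other genes, foremost Nlrp9a, which was listed at 0 throughout. Nlrp1b, the sensor of anthrax lethal factor protease, was at 2.84, 3.13, 6.72, 4.78, 0 and 5.26 TPM. Aim2, Nlrp9b and Nlrp1b were named after their values had been seen. Mefv, the gene of pyrin, and Nlrp12 were each listed at 0 in 5 libraries and under 0.1 TPM in the remaining library.

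Pycard encodes ASC, the adaptor that links sensors carrying a pyrin domain, such as Nlrp6 and Nlrp3, to caspase-1. By mean level it was the most abundant of the 10 genes, at 88.3, 119, 310.3, 162, 157 and 213 TPM, a mean of 174.9 ± 78.6 TPM (SD, n = 6). Replicates 1 and 2 were the lowest and replicate 3 the highest, 3.52 times the level of replicate 1. Within each library it ranked between the 90.01 and the 96.9 percentile of genes listed above 0. Pycard lies on chromosome 7 (GRCm38) from 127989708 to 127993867 on the minus strand, and 12.8% of its exonic bases are overlapped by Gm45205, a gene model on the opposite strand that the table does not list. Whether the counting used strand is not given in the sources used here, so reads from that overlap cannot be assigned with certainty.

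The caspases followed at lower levels. Casp1 encodes caspase-1, the protease of canonical inflammasomes. It was at 65.3, 79.0, 72.2, 71.8, 82.7 and 121 TPM, a mean of 82.1 ± 20.2 TPM (SD, n = 6). Replicate 6 stood above the other 5 libraries, and without it the mean was 74.2 TPM. Casp4 encodes the mouse caspase that binds bacterial lipopolysaccharide in the cytosol, also known as caspase-11. Its levels were 31.4, 13.9, 18.6, 31.1, 63.0 and 20.04 TPM, a mean of 29.7 ± 17.8 TPM (SD, n = 6). Replicate 5 was the highest, 4.53 times replicate 2, and without replicate 5 the mean was 23.0 TPM.

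In all 6 libraries Casp1 was higher than Casp4, by 1.58 ± 0.85 on the log2(TPM + 1) scale (SD, n = 6). The exact sign-flip test gave p = 0.03125, the smallest it can give, and 0.0521 after adjustment over the 5 pairs. Over the 4 pairs without Nlrp3 the adjusted sign-flip p was 0.0625. This difference thus did not pass 0.05 although no library went the other way. With p at its floor, passing depended on how many other pairs reached it, so the adjusted value says little about this pair. The difference was 1.78 within replicates 1 to 3 and 1.37 within replicates 4 to 6. The genes are neighbours on the plus strand of chromosome 9 (GRCm38), with Casp1 from 5298517 to 5307265 and Casp4 from 5308828 to 5336783, and no 25-base word of either transcript occurs in another gene. Casp12, the next caspase gene of that cluster, was listed at 0 except for 0.88 TPM in replicate 6.

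A library was also set apart by its gap to the others, relative to the range of all 6, for 2 of the 8 genes above 0 in every library, Casp1 and Casp4. Among all 11047 genes above 0 in every library this held for 7.79%. The ratios of 0.689 and 0.643 in TPM were 0.619 and 0.466 on the log2(TPM + 1) scale, where neither gene passed, and Casp1 did not pass after median-of-ratios scaling either, at 0.573. It was not the same library for the caspases, replicate 6 for Casp1 and replicate 5 for Casp4.

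Of the 8 other caspase genes listed, 6 were above 0 in every library, and these 6 had a mean of at least 10 TPM, a share of 75% beside the 47.2% and 29.8% of all genes. Casp6, a caspase of apoptosis, was at 58.4 ± 24.6 TPM (SD, n = 6). Casp8, the initiator caspase of death receptors, was at 58.1 ± 12.7 TPM (SD, n = 6), Casp9, the initiator of the mitochondrial pathway, at 19.8 ± 4.56 TPM and Casp2 at 18.6 ± 8.83 TPM. The mean of Casp1 was above that of each of these, and the mean of Casp4 lay between those of Casp8 and Casp9. Casp14, known from the epidermis, was listed at 0 in all 6 libraries.

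Gsdmd encodes gasdermin D, which inflammatory caspases cut to free a fragment that forms pores in the plasma membrane. It was at 133, 135, 92.6, 125.5, 152 and 111 TPM, a mean of 125 ± 20.8 TPM (SD, n = 6). Replicate 3 was the lowest and replicate 5 the highest. It lies on chromosome 15 (GRCm38) from 75862327 to 75867408 on the plus strand and shares no 25-base word with another gene.

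Of the 9 other gasdermin genes, 4 were above 0 in every library, a share of 44.4% that is close to the 47.2% of all genes, and the same 4 had a mean of at least 10 TPM, as had 29.8% of all genes. The Gsdmc cluster of the same chromosome held 3 of them. Gsdmc4 was at 76.5, 32.6, 140.4, 49.7, 46.5 and 39.9 TPM. Gsdmc2 was at 31.1 ± 13.2 and Gsdmc3 at 17.7 ± 11.7 TPM (SD, n = 6). Gsdme (listed as Dfna5), a gasdermin cut during apoptosis, was at 22.9 ± 12.0 TPM (SD, n = 6). Gsdma2, Gsdma3 and Pjvk (listed as Dfnb59) were listed at 0 in all 6 libraries.

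Compared with the most abundant other gasdermin gene of the same library, which was Gsdmc2 in replicate 2 and Gsdmc4 in the other 5 libraries, Gsdmd was higher in 5 of 6 libraries. The difference was 1.06 ± 0.88 on the log2(TPM + 1) scale (SD, n = 6), with exact sign-flip p = 0.0625 and 0.0781 after adjustment. Replicate 3 went the other way, with 140.4 TPM of Gsdmc4 against 92.6 TPM of Gsdmd. The difference was 0.63 within replicates 1 to 3 and 1.49 within replicates 4 to 6. However, 66.7% of the 25-base words of Gsdmc2, 66.3% of those of Gsdmc3 and 56.7% of those of Gsdmc4 occur in other genes, so the share of each is uncertain. Summed, which was chosen after the data had been seen, the 9 other gasdermins were at 117, 121, 257, 129, 110.3 and 85.6 TPM. Against that sum Gsdmd was higher in 4 of 6 libraries, with a mean difference of -0.05 ± 0.71 on the log2(TPM + 1) scale (SD, n = 6) and an exact sign-flip p of 0.96875 before any adjustment. Without replicate 3 the difference was 0.23 ± 0.20 (SD, n = 5). Gsdmd therefore exceeded any other gasdermin gene in most libraries, but its level and the summed level of the others did not differ beyond their spread.

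Downstream of the gasdermin pore, Ninj1, whose protein carries out the rupture of the plasma membrane in lytic death, was at 26.3 ± 10.3 TPM (SD, n = 6). The channel gene Panx1 was at 20.6 ± 7.08 TPM (SD, n = 6). P2rx7, the receptor by which extracellular ATP activates Nlrp3 in macrophages, was at 2.51, 1.19, 0.07, 1.92, 0 and 0 TPM. The means of Ninj1 and Panx1 lay between those of Casp4 and Il18, an order that single libraries did not all share. P2rx7 was named after its values had been seen.

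The cytokine genes differed most between libraries. Il18 encodes a cytokine that epithelial cells of the intestine are known to hold as a precursor. It was at 0.84, 2.96, 17.4, 13.1, 12.6 and 24.6 TPM, a mean of 11.9 ± 8.89 TPM (SD, n = 6). Replicates 1 and 2 lay far below the other 4 libraries, and the highest value was 29.2 times the lowest. Its percentile among genes listed above 0 ranged from 11.8 to 72.6. Il18 lies on chromosome 9 (GRCm38) from 50554827 to 50581840 on the plus strand and shares no 25-base word with another gene.

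Il1b, the IL-1β gene, is best known from myeloid cells and was at 0, 0, 1.90, 0.15, 0 and 3.56 TPM. In replicates 1, 2 and 5 it was listed at 0. Il18 was higher than Il1b in 6 of 6 libraries, by 2.57 ± 1.07 on the log2(TPM + 1) scale (SD, n = 6). With Il1b at 0 in 3 libraries the pseudocount sets this size, which was 4.46 with a pseudocount of 0.1 and 6.21 with 0.01, and the direction in those 3 libraries could not have been otherwise. The exact sign-flip test gave p = 0.03125 and 0.0521 after adjustment, or 0.0625 without the Nlrp3 pair, which did not pass 0.05. Here too p was the smallest the test can give, so passing depended on how many other pairs reached it. The difference was 1.84 within replicates 1 to 3 and 3.29 within replicates 4 to 6. Il1b lies on chromosome 2 (GRCm38) from 129364570 to 129371139 on the minus strand, where 25 exonic bases are overlapped by the antisense gene Il1bos, which the table does not list.

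Levels of Pycard and Il18 followed a like order over the libraries, which was seen in the data and not tested. Both were lowest in replicates 1 and 2 and highest in replicates 3 and 6, as deposited and under both other scalings tried. Under the same scalings, the goblet cell sum and the B cell and plasma cell sum were also lowest in replicates 1 and 2. The tuft cell sum was highest there under each. Il1b was above 0 in replicates 3, 4 and 6, and the macrophage sum was highest in replicates 3 and 6, at 58.1 and 44.2 TPM, also under both other scalings. Genes of that list differed in this, since Csf1r was highest in replicates 3 and 6, Lyz2 and C1qb in replicate 1 and Tyrobp in replicate 2. Mlkl, the executor of necroptosis, was at 0, 0, 6.46, 1.17, 0 and 12.3 TPM and so was above 0 in the same libraries as Il1b, and was named after its values had been seen. The part of goblet cells, macrophages or other cells in these differences between libraries was not tested. The sort, on GFP and EpCam and against CD45, was meant to leave out both goblet cells and macrophages.

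**Figure D2:**
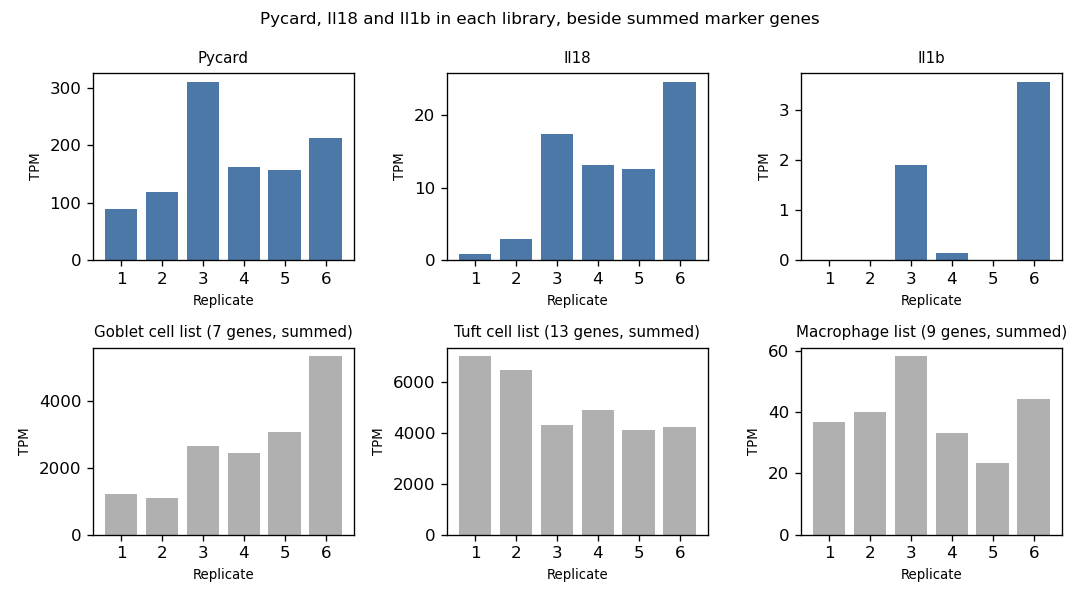
TPM of Pycard, Il18 and Il1b (upper panels) and summed TPM of the goblet cell, tuft cell and macrophage marker genes (lower panels) in each of the 6 libraries, with 1 bar per library and an axis of its own for each panel. Pycard, Il18 and the goblet cell sum are lowest in replicates 1 and 2, where the tuft cell sum is highest.

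Of the 8 other cytokine and antagonist genes of the IL-1 family, 2 were above 0 in every library and 4 at 0 in all. Their share above 0 throughout was 25%, below the 47.2% for the whole table. The share with a mean of at least 10 TPM was 12.5%, below 29.8%. For the 10 inflammasome and gasdermin genes both shares lay above those of the whole table. The 4 genes without a value above 0 stand beside 32.9% such genes in the whole table. Il18bp, whose protein binds and blocks IL-18, was at 12.2, 17.7, 33.5, 4.61, 12.0 and 21.3 TPM, a mean of 16.9 ± 9.93 TPM (SD, n = 6). It was higher than Il18 in replicates 1, 2 and 3 and lower in replicates 4, 5 and 6, the same sets that Gm20594 separated, which was seen in the data and not tested. Il1a, the IL-1α gene, was listed at 0 in all 6 libraries. Of the 9 genes for IL-1 and IL-18 receptors and their adaptor, 5 were above 0 in every library. That share of 55.6% lies near the 47.2% of all genes, and 22.2% had a mean of at least 10 TPM, beside 29.8%. Sigirr, a receptor that dampens signalling of this family in gut epithelium, was the highest at 29.1 ± 8.24 TPM (SD, n = 6), and Myd88, the adaptor, was at 26.6 ± 11.6 TPM (SD, n = 6). Il18r1 was at 0.21 to 0.72 TPM, while Il18rap, Il1r1, Il1r2 and Il1rl2 were listed at 0 in all 6 libraries. Il1rap, the accessory chain of the IL-1 receptor, was at 5.15, 10.35, 2.86, 1.46, 1.6 and 2.82 TPM and so was above 0 in all 6 libraries. These receptor genes were named after their values had been seen.

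All 7 genes listed as partners and regulators of the sensors were above 0 in every library, beside 47.2% of all genes. Each of the 7 had a mean of at least 10 TPM, beside 29.8% of all genes. Serpinb1a, an inhibitor of serine proteases that is also known to restrain caspase-1, was the most abundant at 1153, 841, 676, 656, 594 and 298 TPM, above Pycard in all 6 libraries. Replicates 1 and 2 held the highest levels and replicate 6 the lowest. Txnip, whose protein is known to bind Nlrp3, was at 67.8 ± 21.8 TPM (SD, n = 6), and Nek7, a kinase that Nlrp3 requires, was at 17.9 ± 8.56 TPM (SD, n = 6). Partners of Nlrp3 were therefore transcribed in libraries where Nlrp3 was listed at 0. The RNA helicase genes Dhx15 and Dhx9, which are known as partners of Nlrp6 and Nlrp9b, were at 59.6 ± 21.2 and 10.8 ± 3.42 TPM (SD, n = 6). The peptidase genes Dpp9 and Dpp8, which hold Nlrp1 in check, were at 20.8 ± 7.52 and 17.1 ± 6.11 TPM (SD, n = 6).

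Necroptosis, a lytic death that does not need gasdermins, had 3 of its 4 listed genes above 0 in every library. The kinase gene Ripk3 was at 74.1 ± 13.5 TPM (SD, n = 6), and Zbp1, a sensor of left-handed nucleic acid, was at 36.6 ± 8.004 TPM (SD, n = 6). Ripk1 was at 22.3, 13.1, 9.76, 4.95, 8.46 and 6.49 TPM. Mlkl, given above, was the exception. Of 5 NOD-like receptor genes outside inflammasomes, 2 were above 0 in every library. The mitochondrial Nlrx1 was the most abundant of them at 12.98 ± 5.71 TPM (SD, n = 6), and Nod1 and Nod2, sensors of peptidoglycan fragments, were each above 0 in 5 of 6 libraries, at up to 7.35 and 2.67 TPM. Over all 9 pathway lists, 37 of 65 genes were above 0 in every library, 14 were at 0 in all, and 29 had a mean of at least 10 TPM. Over all genes of the table these shares were 47.2%, 32.9% and 29.8%, against 56.9%, 21.5% and 44.6% of the pathway genes, a description without a test.

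By mean level the order of the 10 genes was Pycard, Gsdmd, Casp1, Nlrp6, Nlrc4, Naip6, Casp4, Il18, Il1b and Nlrp3, and it was the same under both other scalings tried. It was not the same in every set of 5 libraries, since Casp4 lay above Naip6 without replicate 2, at 32.8 against 31.7 TPM, and without replicate 6, at 31.6 against 29.9 TPM. Within replicates 4 to 6 Casp4 also lay above Naip6, at 38.05 against 35.8 TPM, and Nlrc4 above Nlrp6, at 45.2 against 42.5 TPM. Of the 9 pairs of neighbours in this order, 0 differed at an adjusted p under 0.05 in the exact sign-flip test, 3 did at an unadjusted p under 0.05, and 5 did in an exact Mann-Whitney test after adjustment. The 3 pairs were Casp1 over Nlrp6 by 0.80 ± 0.56, Nlrc4 over Naip6 by 0.45 ± 0.28 and Il18 over Il1b by 2.57 ± 1.07 on the log2(TPM + 1) scale (SD, n = 6). Each went the same way in 6 of 6 libraries, with an exact p of 0.03125 and an adjusted p of 0.09375. Over 9 pairs this smallest sign-flip p passes 0.05 after adjustment only if most pairs reach it, so the count of 0 says little. The adaptor and the gasdermin, at the top of the order, exchanged places between libraries, since Pycard exceeded Gsdmd in 4 of 6. Because the order was taken from the same values, these tests describe spread between libraries.

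The remaining genes lie as follows in GRCm38. Nlrp6 is on chromosome 7 from 140920902 to 140929192 on the plus strand (ENSMUSG00000038745.15), the same chromosome as Pycard. Nlrp3 is on chromosome 11 from 59541568 to 59566956 on the plus strand, and Nlrc4 is on chromosome 17 from 74425438 to 74459142 on the minus strand. No other gene overlaps the exons of Nlrp6, Nlrp3, Nlrc4, Naip6, Casp1, Casp4, Gsdmd or Il18 in the annotation. Shared 25-base words were few outside the NAIP family, at 0.794% for Pycard, 0.285% for Nlrp6, 0.225% for Il1b and 0 for the other 6 genes.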

How the data were processed

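With Bowtie, the authors aligned paired-end reads to mouse transcripts of mm10 (UCSC), and the deposited values are TPM calculated by RSEM, which shares out a read among all transcripts it could come from. The study's methods describe a modified SMART-Seq2 preparation with amplification of cDNA, while the labels name this, a 3' polyA and a droplet preparation for every library. The labels also name TopHat. Whether counting used strand is not given in the sources used here. All 6 columns of the table, in TPM to 2 decimals, were matched to replicates by their numbers.

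Values were used as deposited. Genes were compared within libraries on the log2(TPM + 1) scale by an exact permutation test over all 64 sign flips (two-sided), with Benjamini-Hochberg adjustment over 5 planned pairs and, separately, over 9 pairs of neighbours. The pseudocount compresses differences between genes of low level. The members and gene lists were chosen with earlier results of these data known. Named are all 10 members, genes of the pathway lists averaging at least 10 TPM, the leading gene of each list, defining immune genes, and Rn45s and Gm20594, except for genes that are not reported here. Alternatives were other pseudocounts, a filter on low values, other scalings, an exact Mann-Whitney test over 924 assignments, left-out libraries, sets of libraries and, chosen after the data were seen, adjustment over 4 pairs without Nlrp3, a sum over other gasdermins and the same scalings, filter and left-out libraries for pathway genes and list sums.

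Positions, exons and transcripts came from GENCODE M21 on GRCm38, matched by symbol, and all 10 members were found. These are not the authors' gene models. Words of 25 bases were compared on the transcript strand. The tests were checked on simulated data. Tools were scipy 1.17.1, pandas 2.3.3, numpy 2.4.6 and matplotlib 3.10.9 under Python 3.11.15.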

Additional observations from a re-analysis of the deposited data

Results flagged for a closer look

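In 6 of 57 measures over the 6 libraries, the highest or lowest library lay far from the nearest other relative to the whole range, where chance alone is taken to give about 1 in 20, or 2.85. Among the 11047 genes above 0 in every library the share was 7.79%, so 6 measures lie near that background. For Casp1, replicate 6 was at 121 TPM and the next library at 82.7 TPM, a gap of 0.689 of the range, and the mean of 82.1 TPM was 74.2 TPM without it. For Casp4, replicate 5 was at 63.0 TPM and the next at 31.4 TPM, a gap of 0.643 of the range, and the mean of 29.7 TPM was 23.0 TPM without it. On the log2(TPM + 1) scale these gaps were 0.619 and 0.466, and after median-of-ratios scaling 0.573 and 0.655, so neither lay past Dixon's critical value on every scale.

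For the helicase gene Dhx9, replicate 4 was lowest at 4.15 TPM, with the next at 11.0 TPM and a gap of 0.728 of the range, which was 0.814 on the log2(TPM + 1) scale, but 0.537 after median-of-ratios scaling and 0.574 without Rn45s and Gm20594, where it was not past the critical value. The sum of the 9 other gasdermins was 257 TPM in replicate 3 and at most 129 TPM elsewhere, a gap of 0.75 that was 0.723 after median-of-ratios scaling and 0.747 without Rn45s and Gm20594. Ninj1, Panx1 and P2rx7 together were at 65.8 TPM in the same library and at most 48.6 TPM elsewhere, a gap of 0.672 that fell to 0.423 after median-of-ratios scaling. Dendritic cell genes summed to 7.53 TPM in replicate 1 and to at most 2.65 TPM elsewhere, a gap of 0.732 that was 0.557 and not past the critical value on the log2(TPM + 1) scale but 0.736 after median-of-ratios scaling and 0.742 without Rn45s and Gm20594, and their mean sum was 2.65 TPM with replicate 1 and 1.67 TPM without it.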

How the results depend on the processing

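With the exact Mann-Whitney test, which ignores that both genes come from the same library, Nlrp6 over Nlrp3 (5.55), Casp1 over Casp4 (1.58) and Il18 over Il1b (2.57) passed an adjusted p of 0.05, at exact adjusted p of 0.00541, 0.00541 and 0.0253. Against Nlrp3, listed at 0 throughout, that outcome was certain and says nothing. Of the neighbours in the order of levels, 5 in place of 0 pairs passed, but the pairs and their direction were taken from the same values, so this count describes spread only. The count of 0 was limited by the smallest p that the sign-flip test can give. Gsdmd over the highest other gasdermin had an exact Mann-Whitney p of 0.0411, and 0.0514 after adjustment. Gsdmd over the sum of the other gasdermins, in place of the highest, was -0.0524, a change of sign well within its SD of 0.71. With replicates left out in turn, the differences ranged from 5.48 to 5.64 for Nlrp6 over Nlrp3, from 0.01 to 0.23 for Nlrp6 over Nlrc4, from 1.38 to 1.82 for Casp1 over Casp4, from 2.33 to 2.91 for Il18 over Il1b and from 0.93 to 1.39 for Gsdmd over the highest other gasdermin. Other pseudocounts and scalings cannot change which gene of a pair is higher in a library, so they are no check of direction. Left-out libraries and sets of libraries gave values with no test, and of these Nlrp6 over Nlrc4 changed sign within replicates 4 to 6. Rescaling without Rn45s and Gm20594 raised the means of 6 members, 22 of 29 pathway genes and 14 of 19 list sums by more than 1 SD. Filtering and median-of-ratios scaling moved none of these by as much. That rescaling multiplied all values of a library by a factor between 1.33 and 1.61, so which means moved depended on their SD. The median-of-ratios divisors lay between 0.93 and 1.15, and the filter touched only values under 0.1 TPM. These counts are therefore no check of the levels. With at least 1 TPM required in every library, in place of a level above 0, 7 members passed in place of 8. Single libraries weigh on low values, since the mean of Il1b was 0.935 TPM with all libraries and 0.41 TPM without replicate 6, and the B cell and plasma cell sum was 10.4 TPM and, without replicate 5, 4.82 TPM. The libraries' depth is unknown, so low values such as those of Il1b cannot be told from a lack of reads.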
